A study of Mus musculus with 4 samples.

Results

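ABC transporter genes encode membrane pumps that use ATP to move substrates. They were taken as the protein-coding rows of the gene table whose symbol is Abc followed by a subfamily letter from a to g, a number and at most 1 further letter, and 48 of the 31828 genes in the table were members. The RNA-seq data came from AML12, an immortal hepatocyte line from a mouse carrying a human transforming growth factor alpha transgene. Cells were kept either as flat cultures on plastic (2D) or inside a gel of Matrigel, an extract of basement membrane (3D). There were 2 libraries per culture and 4 in all. All cultures received the same medium with serum, insulin, transferrin, selenium and dexamethasone, and 1 mM hydroxyurea, which depletes deoxynucleotides and stops cells at the onset of S phase. The drug was given over 24 h to the 2D and over 36 h to the 3D cultures, so the length of treatment and the culture cannot be told apart.

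A hepatocyte is polarised. Its canalicular membrane faces the bile and carries pumps for bile salts, conjugates, phospholipid, sterols and drugs, and its sinusoidal membrane faces the blood and carries pumps that return conjugates to the circulation. Further ABC proteins move lipids between the leaflets of cell membranes, serve mitochondria, peroxisomes and lysosomes, or act in translation without crossing a membrane. Levels are given as TPM, a transcript's abundance as parts of a fixed library total, which are corrected for transcript length and can be compared between genes. Differences are given as the log2 change, the log2 fold change of TPM + 1, 3D over 2D, with its standard error (SE) and the adjusted p from a limma fit over all genes with a mean of at least 1 TPM. On this scale the change of a low gene comes out too small. Folds are ratios of mean TPM, with the range over the 4 pairs of one 3D and one 2D library.

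Of the 14116 genes tested, 50.5% had an adjusted p-value under 0.05, 23.4% higher and 27.1% lower in 3D-cultured cells. The log2 values correlated at 0.991 between the 2D libraries, 0.992 between the 3D libraries and 0.951 to 0.952 between cultures, across genes. Mitochondrial genes held 5.37% to 5.44% of the TPM in 2D and 6.51% to 6.78% in 3D. Of the 9 hepatocyte markers examined, 6 were tested and 5 rose in 3D. The summed level of the 9 was 92.1 to 93.8 TPM in 2D and 497 to 511 TPM in 3D. Of this, Trf gave 19.3 and 18.4 TPM in 2D and 227 and 231 TPM in 3D. Hnf4a gave 56.7 and 57.6 TPM in 2D and 164 and 156 TPM in 3D. Afp lay between 7.26 and 8.25 TPM and was not called, and Serpina1a and Tat did not pass 0.201 TPM. Alb, the gene of serum albumin, stood at only 0.819 and 1.20 TPM in 2D and 12.7 and 10.0 TPM in 3D, and the hepatocyte enzyme gene Cyp2e1 was listed at 0 in 3 of 4 libraries. Summed levels of the 6 cholangiocyte markers were 2356 to 2460 TPM in 2D and 2322 to 2411 TPM in 3D. Of the 5 tested 2 rose and 2 fell. The keratin genes Krt19 (1728 and 1647 TPM in 2D, 1174 and 1226 TPM in 3D) and Krt7 were lower and Spp1 (166 and 138 TPM in 2D, 764 and 786 TPM in 3D) and Sox9 higher, while Epcam was listed at 0 in 3 libraries. The macrophage list summed to 134 TPM in each 2D library and to 295 and 298 TPM in 3D. Of this, Cd14 gave 113 and 114 TPM in 2D and 271 TPM in each 3D library. Cd68 was at 19.0 and 18.3 TPM in 2D and at 25.5 and 21.4 TPM in 3D. Lyz2 lay between 0.771 and 1.67 TPM, and Ptprc and Adgre1 were under 0.31 TPM. Endothelial markers summed to at most 2.13 TPM, and stellate cell markers to 34.9 and 37.4 TPM in 2D and 18.6 and 19.8 TPM in 3D, of which Des gave 33.7 and 36.1 TPM in 2D and 18.8 and 17.3 TPM in 3D, with Col3a1 at or near 0. The part of these markers and of the mitochondrial share in the differences below was not tested. In bulk libraries a lower share of cells with a transcript and less of it per cell cannot be told apart.

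The study asked whether gene expression differs between 2D- and 3D-cultured cells. Among the ABC genes, the canalicular pump gene Abcc2, the regulatory subunit gene Abcc8, the sinusoidal pump gene Abcc3, the peroxisomal gene Abcd3 and the lipid transporter gene Abca8b rose in 3D. The multidrug pump genes Abcb1b and Abcb1a, the efflux pump gene Abcg2 and the bile salt pump gene Abcb11 fell. Of the 48 members 31 passed the filter on low values and 17 did not. Of the 31 tested, 12 were called higher and 8 called lower (adjusted p-value under 0.05), or 38.7% and 25.8%, beside 23.4% and 27.1% of all genes tested. Among the 8 was Abcb11, which passed the filter only through its 2D libraries. The median log2 change of the tested members was 0.0288, and that of all genes tested was -0.0359. Libraries of the cultures did not overlap for 28 of the 31, beside 77.5% of all genes tested. Called members whose log2 change was over 1 in size numbered 3, 2 upward and 1 downward, beside 8.2% of all genes tested (4.37% upward and 3.83% downward). The calls on lower genes were the less stable, with 4 or 5 in place of 8 when any of the 4 libraries was left out. The members together accounted for 0.116% and 0.122% of all TPM in 2D and for 0.137% and 0.135% in 3D.

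**Figure D1:**
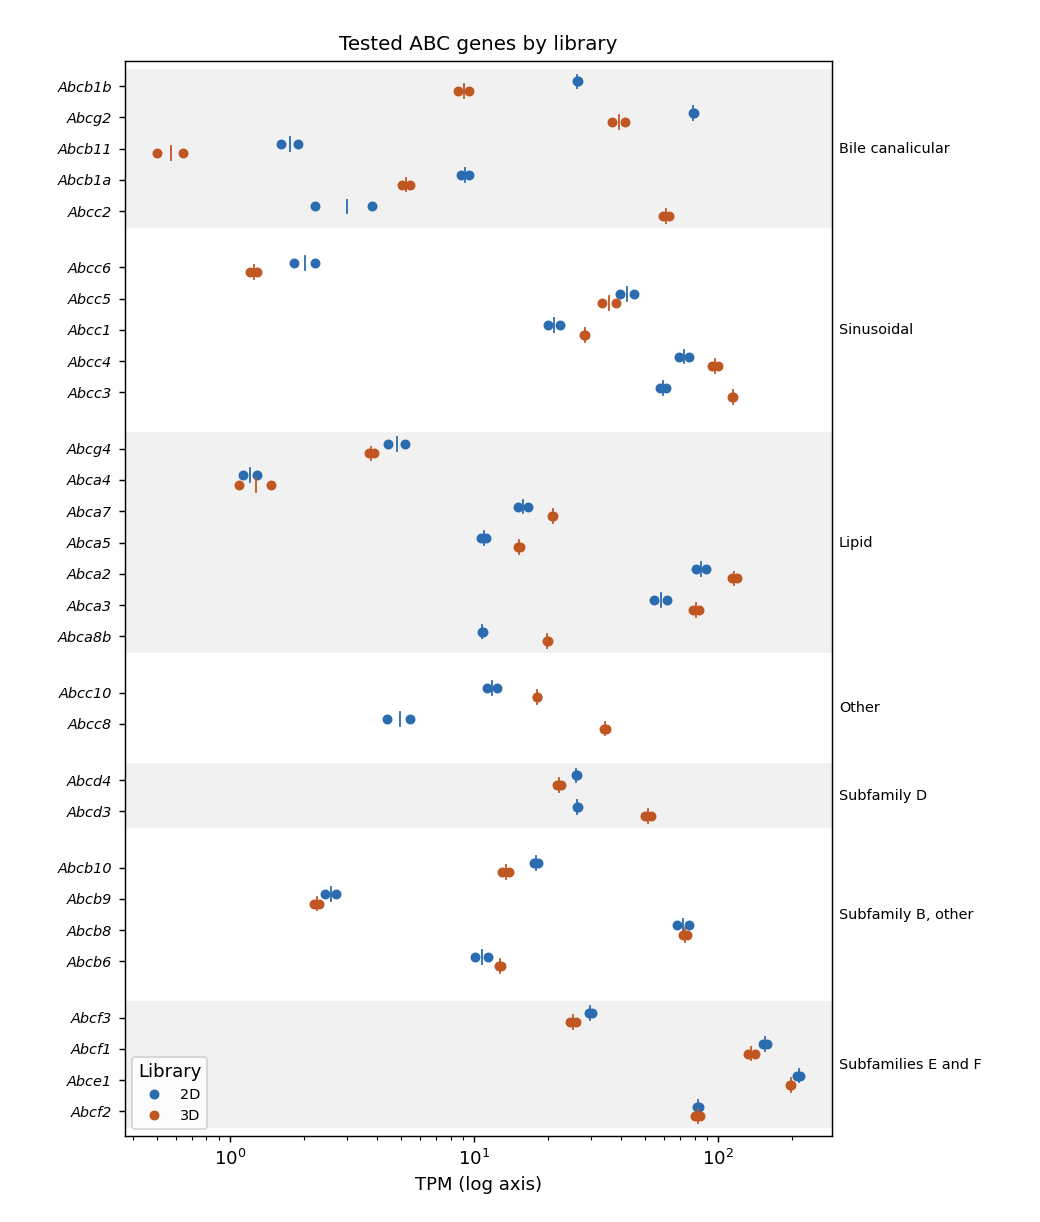
TPM on a log axis of 29 of the 31 tested ABC genes, grouped by role, with 1 point per library and a short line at the mean of each culture. Abcc2 shows the widest gap, from 2.22 and 3.83 TPM in 2D to 63.0 and 59.4 TPM in 3D, while Abce1 and Abcf1 have the highest levels in both cultures.

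**Figure D2:**
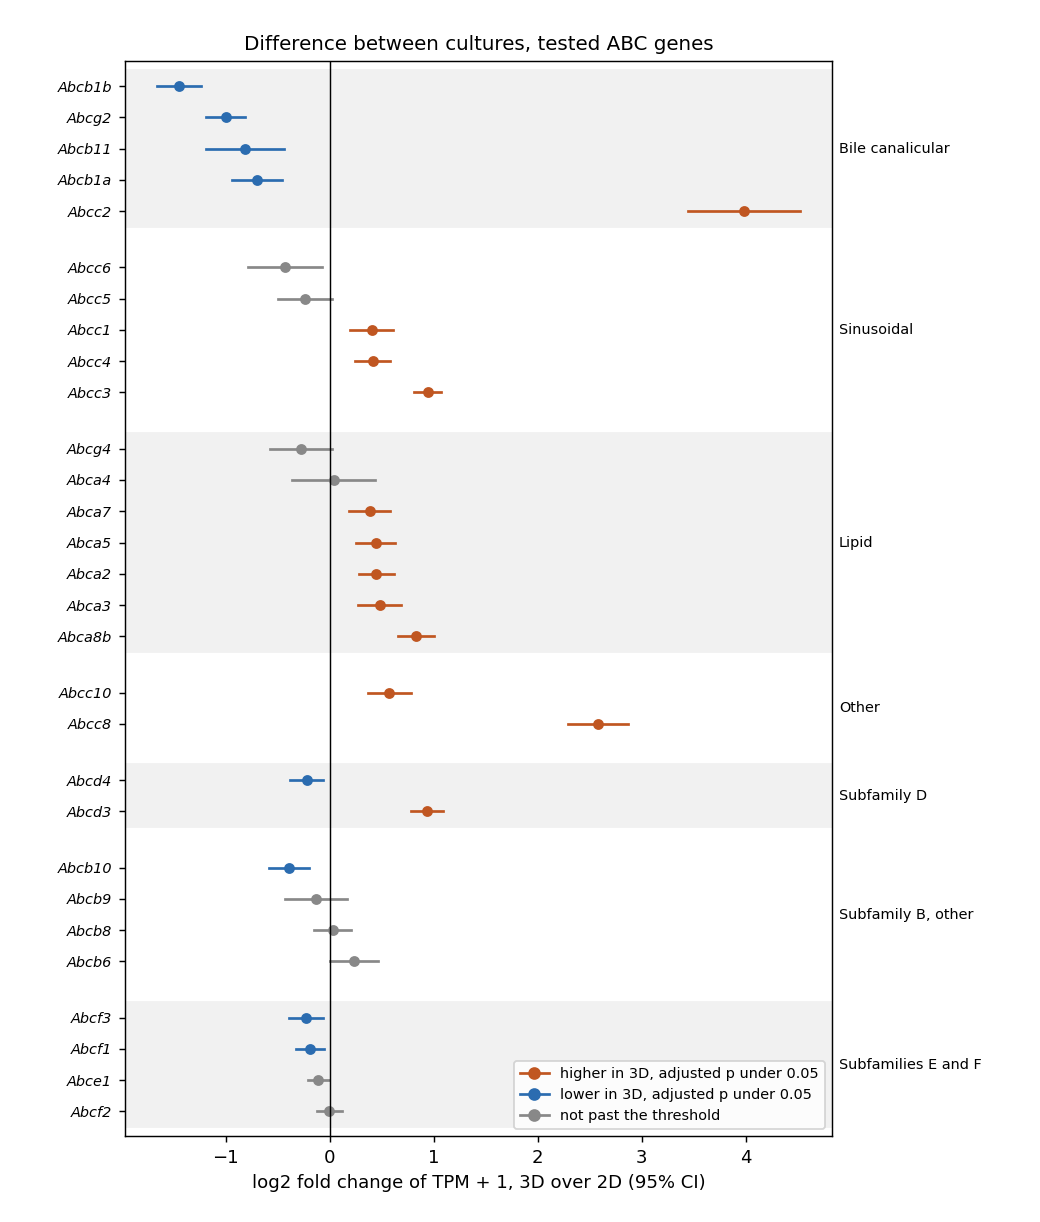
Log2 fold change of TPM + 1, 3D over 2D, with its 95% confidence interval for 29 of the 31 tested ABC genes, coloured by the limma call. Abcc2 (3.98) and Abcc8 (2.57) lie farthest to the right and Abcb1b (-1.45) farthest to the left.

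Among the bile canalicular exporters Abcc2 rose in 3D, and the 4 others that could be tested fell. Among all genes tested, 23.4% were called higher and 27.1% lower. Abcb11, 1 of the 4, passed the filter on low values only through its 2D libraries. Abcc2 (ENSMUSG00000025194, chromosome 19, 43782192 to 43840740, GRCm38) encodes the pump for bilirubin glucuronides and glutathione conjugates. It was at 2.22 and 3.83 TPM in 2D and at 63.0 and 59.4 TPM in 3D. Both 3D libraries lay far above both 2D libraries, a rise of 20.2-fold with a range of 15.5 to 28.4. The log2 change was 3.98 (SE 0.20, adjusted p 0.000465). Among the 48 members its level moved from rank 27 in 2D to rank 9 in 3D.

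Abcg2 (ENSMUSG00000029802, chromosome 6, 58584523 to 58695676) encodes a pump for drugs, urate and sulphated conjugates. Its 2D libraries held 78.5 and 79.7 TPM and its 3D libraries 41.4 and 36.8 TPM, so that the mean was 2.02-fold higher in 2D (range 1.90 to 2.16). The log2 change was -1.0 (SE 0.07, adjusted p 0.000875). Abcb1b (ENSMUSG00000028970, chromosome 5, 8798147 to 8866315), 1 of the rodent genes for P-glycoprotein, the multidrug pump, was at 26.3 and 26.6 TPM in 2D and at 9.55 and 8.57 TPM in 3D. It was 2.92-fold higher in 2D (range 2.75 to 3.11), a log2 change of -1.45 (SE 0.08, adjusted p 0.000526).

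Its neighbour Abcb1a (ENSMUSG00000040584, chromosome 5, 8660077 to 8748575), the other P-glycoprotein gene, stood at 8.84 and 9.495 TPM in 2D and at 5.44 and 5.07 TPM in 3D. The cultures did not overlap, with a log2 change of -0.70 (SE 0.09, adjusted p 0.00415). The pair shares sequence, and 8.72% of the 100-base words of the longest coding transcript of Abcb1b also occur in transcripts of other genes, most of them from Abcb1a. For Abcb1a the share was 7.72%. The split of reads between them is therefore uncertain. Their sum was 35.1 and 36.1 TPM in 2D and 15.0 and 13.6 TPM in 3D, with a log2 change of -1.26 (SE 0.07, adjusted p 0.000574).

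Abcb11 (ENSMUSG00000027048, chromosome 2, 69238282 to 69342616), the bile salt export pump, was low in every library. It was at 1.61 and 1.90 TPM in 2D and at 0.641 and 0.502 TPM in 3D, a log2 change of -0.81 (SE 0.14, adjusted p 0.00997). It was the only tested member with a culture mean under 1 TPM, and passed the filter through its 2D libraries. A processed pseudogene that lies within it on the opposite strand, Gm13614, was at 8.60 and 13.0 TPM in 2D and at 1.81 and 1.51 TPM in 3D. The part of its reads in the values of Abcb11 was not tested.

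The remaining canalicular genes were not tested. Abcb4, the phosphatidylcholine floppase, was at 0.336 and 0.238 TPM in 2D and at 0.294 and 0.344 TPM in 3D, so that the cultures overlapped. Abcg5, which with Abcg8 forms the sterol pump, was at 0.450 and 0.217 TPM in 2D and at 0.114 and 0.1796 TPM in 3D. Abcg8 did not pass 0.0339 TPM and was listed at 0 in a 2D library.

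Summed over the 8 canalicular genes, the level was 118 and 122 TPM in 2D and 121 and 111 TPM in 3D, and the cultures overlapped. The makeup of the sum differed. Abcg2 held 66.4% and 65.3% of it in 2D but 34.4% and 33.2% in 3D. Abcc2 held 1.88% and 3.14% in 2D and 52.3% and 53.5% in 3D, and was the highest canalicular gene there. Abcb1a and Abcb1b together gave most of the rest, and Abcb11 at most 1.56%. These shares restate the levels above and carry no test of their own.

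**Figure D3:**
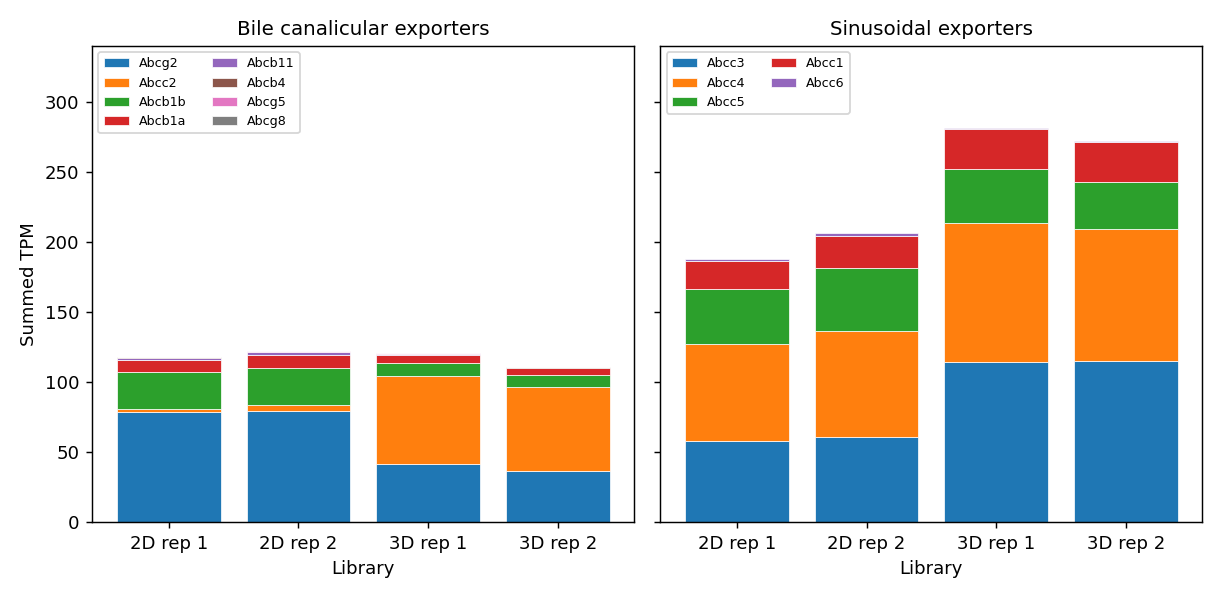
Summed TPM per library of the 8 bile canalicular exporters (left) and the 5 sinusoidal exporters (right), stacked by gene from 0. The canalicular sum lies between 111 and 122 TPM in all 4 libraries while its main gene is Abcg2 in 2D and Abcc2 in 3D, and the sinusoidal sum is 188 and 207 TPM in 2D and 282 and 272 TPM in 3D.

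Of the sinusoidal exporters, 3 of 5 rose in 3D and none fell at the threshold used, beside 23.4% and 27.1% of all genes tested. Abcc3 (ENSMUSG00000020865, chromosome 11, 94343295 to 94392997), which exports glucuronides to the blood, had 57.7 and 60.9 TPM in 2D and 114 and 115 TPM in 3D. The rise was 1.93-fold (range 1.88 to 1.99), a log2 change of 0.94 (SE 0.05, adjusted p 0.000467). Abcc4 (ENSMUSG00000032849, chromosome 14, 118482692 to 118706219), a pump for cyclic nucleotides and bile acid conjugates, had 69.3 and 75.9 TPM in 2D and 99.5 and 94.4 TPM in 3D. Its log2 change was 0.41 (SE 0.06, adjusted p 0.00693). Abcc1 (ENSMUSG00000023088, chromosome 16, 14361558 to 14475737), a glutathione conjugate pump, had 19.98 and 22.5 TPM in 2D and 28.6 and 28.2 TPM in 3D, with a log2 change of 0.40 (SE 0.08, adjusted p 0.0136). Without either of the 3D libraries its adjusted p-value was 0.0679 and 0.0610.

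Abcc5, a pump for cyclic nucleotides and other organic anions, was at 39.4 and 45.0 TPM in 2D and at 38.0 and 33.4 TPM in 3D. Its 3D libraries were both lower, but the log2 change of -0.24 had a 95% interval from -0.50 to 0.0253 (adjusted p 0.110). Abcc6, which governs ATP release by hepatocytes, was at 1.82 and 2.24 TPM in 2D and at 1.21 and 1.29 TPM in 3D (log2 change -0.43, adjusted p 0.0537). It passed the threshold with a constant prior variance (adjusted p 0.0257). The sum of the 5 genes was 188 and 207 TPM in 2D and 282 and 272 TPM in 3D. Summed levels of the canalicular and sinusoidal genes are on the same per-length scale, and the sinusoidal sum was the higher in every library.

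Promoter sequences are shown for the members whose windows held the core of the antioxidant response element. This element is known as the site bound by the product of Nfe2l2, an oxidative stress factor. The Nfe2l2 gene was at 92.9 and 91.1 TPM in 2D and at 146 and 144 TPM in 3D (log2 change 0.65, adjusted p 0.000665). Whether its product acts on any of these genes was not tested. RefSeq promoter windows (GRCm38.p6), the 250 bases before each annotated start, were at hand for 36 of the 48 members, in 43 windows. No window was at hand for Abcc1, Abcc3 and Abcc8, which also rose. The core of the element, TGACNNNGC on either strand, was in 4 of the 43 windows (9.30%) and in 10.2% of all 32851 windows, so the members hold it at about the background share. The 4 windows belong to Abcc2, Abcc4 and Abcc10, a further subfamily C gene, which rose. The sites are given with 10 bases on each side, 5′ to 3′ on the strand of the gene, with the core in capitals. They lie at chr19:43782200-43782228 on the plus strand for Abcc2 and, on the minus strand, at chr14:118706226-118706254 for the outer and chr14:118676936-118676964 for the inner start of Abcc4 and at chr17:46328208-46328236 for Abcc10.
Abcc2: ctcactgggaTGACATAGCattcatctag
Abcc4, outer start: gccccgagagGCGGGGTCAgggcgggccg
Abcc4, inner start: aataatctcgTGACTCTGCcgtggtggat
Abcc10: cgcagcacccTGACCTGGCagcgcgtcct
The core begins 98 bases before the RefSeq start of Abcc2, 25 and 23 before those of Abcc4 and 203 before that of Abcc10. The site of Abcc2 lies within an exon of GENCODE release M21, whose start is upstream of that of RefSeq. The window of Abcc10 that holds the core likewise lies inside the gene as the table places it and holds 146 exon bases of that release.

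The 134 bases before that exon of Abcc2, at chr19:43782058-43782191 on the plus strand, are shown because this gene had the largest change, and the whole 250-base window of the outer start of Abcc4, at chr14:118706220-118706469 on the minus strand, for contrast in base composition. The former holds 47.8% G and C over its 134 bases and the latter 72% over its 250 bases. The former ends before the core of Abcc2, and capitals mark the core in the latter.
Abcc2, before the exon: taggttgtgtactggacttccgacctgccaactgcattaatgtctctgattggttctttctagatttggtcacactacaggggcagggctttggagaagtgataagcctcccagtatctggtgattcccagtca
Abcc4, outer start: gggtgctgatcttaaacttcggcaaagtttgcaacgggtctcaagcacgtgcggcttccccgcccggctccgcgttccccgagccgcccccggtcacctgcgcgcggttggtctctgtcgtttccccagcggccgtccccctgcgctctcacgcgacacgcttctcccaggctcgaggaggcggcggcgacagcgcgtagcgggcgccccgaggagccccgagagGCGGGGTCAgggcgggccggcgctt
Among further letter patterns searched on both strands, several were in none of the members' windows. These included AGGTCA followed after 1 base by its reverse complement TGACCT (the FXR inverted repeat), AGGTCA repeated directly with 4 bases between (the LXR pattern) or with 1 base between, and the HNF4 pattern CAAAGTCCA, which stood in 0.00609%, 0.0152%, 0.0335% and 0.384% of all windows. The E-box CACGTG was in 4 of 43 windows (6.02% of all), the p53 core CATGTC in 7 (8.17% of all), CCAAT in 13 (33.8% of all) and GGGCGG in 19 (32.7% of all). In the outer window of Abcc4 a GGGCGG follows the element core directly, without overlap. A match is a description of the letters only.

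Lipid transporters were tested for 7 of 14 genes. Of these, 5 rose in 3D and none fell at the threshold used, beside 23.4% and 27.1% of all genes tested. Abca2 and Abca3 had the highest levels. Abca2 (ENSMUSG00000026944, chromosome 2, 25428703 to 25448540), a transporter of late endosomes and lysosomes, had 81.1 and 89.1 TPM in 2D and 120 and 113 TPM in 3D. Its log2 change was 0.45 (SE 0.06, adjusted p 0.00544). Abca3 (ENSMUSG00000024130, chromosome 17, 24351950 to 24410201), the phospholipid transporter of lamellar bodies in lung, had 54.3 and 61.8 TPM in 2D and 79.0 and 83.5 TPM in 3D, with a log2 change of 0.48 (SE 0.08, adjusted p 0.00805). Each of the 3D libraries lay above each of the 2D libraries for both genes.

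Abca8b (ENSMUSG00000020620, chromosome 11, 109932190 to 109995845), a gene linked to cholesterol export, showed the largest change of this group. It was at 10.8 and 10.7 TPM in 2D and at 20.03 and 19.9 TPM in 3D, a rise of 1.85-fold (range 1.84 to 1.86) and a log2 change of 0.83 (SE 0.07, adjusted p 0.00115). Abca5 (ENSMUSG00000018800, chromosome 11, 110269369 to 110337716), a lysosomal and endosomal protein, was at 10.7 and 11.2 TPM in 2D and at 15.4 and 15.1 TPM in 3D (log2 change 0.44, adjusted p 0.00788, and 0.0511 without 3D replicate 1). Abca7 (ENSMUSG00000035722, chromosome 10, 79996494 to 80015572), a phospholipid transporter, was at 15.1 and 16.6 TPM in 2D and at 20.9 and 21.004 TPM in 3D. Its log2 change was 0.39 (adjusted p 0.0136, and 0.0667 and 0.0681 without either 3D library).

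Abcg4, a sterol transporter best known from brain, was at 5.203 and 4.43 TPM in 2D and at 3.89 and 3.69 TPM in 3D. The log2 change of -0.28 had an interval from -0.58 to 0.0242 (adjusted p 0.106). Abca4, the retinoid transporter of photoreceptors, lay between 1.08 and 1.47 TPM with overlapping cultures (log2 change 0.0375, interval -0.36 to 0.44, adjusted p 0.854). Abca1, which loads cholesterol onto apolipoprotein A-I, was listed at 0 in 3 libraries and at 0.0292 TPM in a 3D library. Abcg1, which exports cholesterol to HDL, did not pass 0.101 TPM, and the other 5 genes of the list without a test did not pass 0.550 TPM.

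Members that lie side by side on a chromosome did not all have like levels. On chromosome 11 the genes Abca8b, Abca8a, Abca9, Abca6 and Abca5 follow each other on the same strand from 109932190 to 110337716, with gaps of 29.8, 4.77, 8.62 and 17.6 kb and no other protein-coding start between them. The outer genes, Abca8b and Abca5, were at 10.7 to 20.03 TPM and rose, and the 3 between them did not pass 0.550 TPM in any library. On chromosome 5 Abcb1a and Abcb1b lie 49.6 kb apart and both fell, while Abcb4, 27.4 kb beyond Abcb1b, did not pass 0.344 TPM. Abca17 and Abca3 start 920 bases apart on opposite strands of chromosome 17. Abca17 was at 0.375 and 0.369 TPM in 2D and at 1.33 and 0.781 TPM in 3D, too low for the test.

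**Figure D4:**
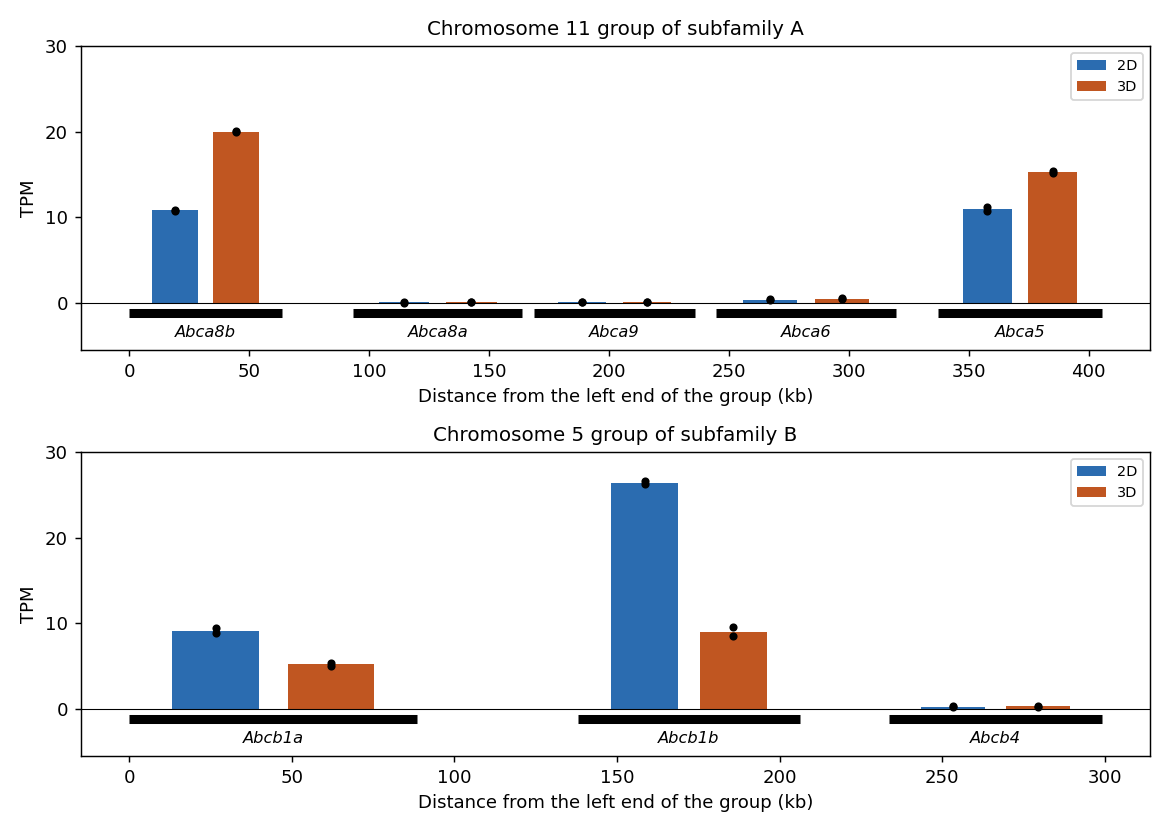
TPM of the ABC genes of the chromosome 11 group (top) and the chromosome 5 group (bottom) against the distance in kb from the left end of each group. Black bars mark the genes, columns are culture means from 0 and points are libraries. Abca8b and Abca5 at the ends of the chromosome 11 group are higher in 3D with 3 genes under 0.550 TPM between them, and Abcb1a and Abcb1b on chromosome 5 are lower in 3D.

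Among the other members Abcc8 had the second largest rise. Abcc8 (ENSMUSG00000040136, chromosome 7, 46104523 to 46180033) encodes the sulphonylurea receptor, which is not a pump but the regulatory subunit of the ATP-sensitive potassium channel of beta cells. It was at 4.41 and 5.48 TPM in 2D and at 34.5 and 34.0 TPM in 3D, 6.93-fold higher (range 6.21 to 7.83), with a log2 change of 2.57 (SE 0.11, adjusted p 0.000331). The genes of the pore subunits were looked up after this value was seen. Kcnj11, the pore gene that lies beside Abcc8, was listed at 0 in 3 libraries and at 0.0286 TPM in a 2D library, and Kcnj8 at 0 in 3 libraries and at 0.0476 TPM in a 3D library. Abcc9, the related receptor gene, did not pass 0.215 TPM. Abcc10 (ENSMUSG00000032842, chromosome 17, 46303221 to 46328352), a broad lipophilic anion pump, was at 11.3 and 12.4 TPM in 2D and at 18.2 and 18.0 TPM in 3D (log2 change 0.57, SE 0.08, adjusted p 0.00453). It overlaps Dlk2 on the opposite strand, which was at 79.4 and 79.3 TPM in 2D and at 65.3 and 71.4 TPM in 3D.

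In subfamily D, Abcd3 rose and Abcd4 fell. Abcd3 (ENSMUSG00000028127, chromosome 3, 121758774 to 121815302), a peroxisomal importer of branched-chain acyl-CoA and bile acid intermediates, was at 26.3 and 26.6 TPM in 2D and at 49.9 and 53.1 TPM in 3D. The rise was 1.95-fold (range 1.88 to 2.02), a log2 change of 0.94 (SE 0.06, adjusted p 0.000661). Abcd4, which takes part in the release of cobalamin from lysosomes, had a log2 change of -0.22 (adjusted p 0.0345). Abcd2 did not pass 0.0833 TPM.

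Of the mitochondrial and lysosomal genes of subfamily B, 1 of 5 passed the threshold, beside 50.5% of all genes tested. Abcb10, an inner membrane protein of mitochondria needed for heme synthesis, fell from 18.3 and 17.6 to 13.0 and 13.9 TPM, a log2 change of -0.39 (adjusted p 0.0125, and 0.0695 without 3D replicate 1). Abcb6, Abcb8 and Abcb9 had log2 changes from -0.13 to 0.23 and adjusted p-values of 0.0855 to 0.743. For Abcb6 the value is uncertain, since 86.6% of the 100-base words of its transcript also occur in the overlapping transcript gene Gm29253.

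The highest levels of all belonged to Abce1 and Abcf1 of the soluble subfamilies E and F. Abce1, the ribosome recycling factor, was first in both cultures at 211 and 216 TPM in 2D and 199 and 198 TPM in 3D (log2 change -0.11, interval -0.20 to -0.0113, adjusted p 0.0656). Abcf1, a factor of translation initiation, came next and fell by 0.19 on the log2 scale (adjusted p 0.0352). Abcf3 fell by 0.23 (adjusted p 0.0363). The calls on Abcf1, Abcf3 and Abcd4 were lost when any of the 4 libraries was left out. Abcf2 stood at 80.7 to 84.3 TPM with overlapping cultures, and its log2 change of -0.00320 had an interval from -0.13 to 0.12 (adjusted p 0.960).

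Genes related to these pumps were taken from lists. Of 15 nuclear receptors and transcription factors that act on exporter genes 11 were tested, and 10 rose and 1 fell, beside 23.4% and 27.1% of all genes tested. The 4 without a test did not pass 0.422 TPM in any library. Hnf4a, the gene of a hepatocyte factor, was at 56.7 and 57.6 TPM in 2D and at 164 and 156 TPM in 3D (log2 change 1.47, adjusted p 0.000241). Ahr (1.22), Nfe2l2 (0.65) and the sterol factor gene Srebf2 (0.62) rose as well, with adjusted p-values of 0.000665 to 0.000979. Nr1h4, the gene of the bile acid receptor FXR, fell from 141 and 136 to 113 and 112 TPM (log2 change -0.30, adjusted p 0.00474).

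All 12 tested genes of the 13 in the glutathione conjugation list rose, beside 23.4% of all genes tested. Their median log2 change was 1.32. Gclc, the catalytic subunit of the first enzyme of glutathione synthesis, went from 205 and 211 to 571 and 562 TPM (log2 change 1.44, adjusted p 0.000202). The glutathione transferase genes Gsta3, Gsta4 and Gstt1 had log2 changes of 3.69, 2.81 and 2.43 (adjusted p 0.000215, 0.00023 and 0.000698). Gsta3 and Gstt1, with 2D means under 1 TPM, passed the filter only through their 3D libraries. Gstp1, the highest of them, rose by 0.45. Glutathione transferase genes have close paralogs, so how their reads were divided is uncertain.

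Of 13 genes of the canalicular scaffold and membrane 12 were tested, with 3 higher and 2 lower, where 50.5% of all genes tested were called. Pdzk1, whose PDZ domains bind the tails of transporters, rose from 0.139 and 0.225 to 3.24 and 2.06 TPM (log2 change 1.61, adjusted p 0.00383). It passed the filter on low values only through its 3D libraries. Msn and Rdx, which link membrane proteins to actin, fell by 0.71 and 0.64 on the log2 scale (adjusted p 0.000683 and 0.000897), while their relative Ezr had a value of -0.0728 (adjusted p 0.116). In the lists for bile acid synthesis and uptake only 2 of the 11 genes in the table reached the test. These were Cyp27a1, an enzyme of bile acid synthesis, at 15.7 and 17.7 TPM in 2D and 28.7 in each 3D library (log2 change 0.75, adjusted p 0.00244), and the organic anion carrier gene Slco2b1 (0.24, adjusted p 0.0431). The call on Slco2b1 was lost when any of the 4 libraries was left out.

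Of 11 acceptors and partners of lipid export 8 were tested, and 3 rose and 2 fell, beside 23.4% and 27.1% of all genes tested. Apoa1, the apolipoprotein that accepts cholesterol, rose from 5.48 and 4.30 to 11.04 and 10.95 TPM (log2 change 1.03, adjusted p 0.00337), and Soat1, which esterifies cholesterol, rose by 1.06 (adjusted p 0.000952). Lcat, which esterifies cholesterol on HDL, fell by 1.02 (adjusted p 0.00238). The lysosomal cholesterol genes Npc2 and Npc1 had values of 0.17 and 0.19 (adjusted p 0.0461 and 0.0556), and Soat2 one of 0.0642 (adjusted p 0.560). The call on Npc2 was lost without 2D replicate 2 (adjusted p 0.1001) and without either 3D library (0.153 and 0.175). Of the ABC genes with other symbols, the antigen peptide transporter gene Tap1 fell from 2.39 and 2.10 to 0.694 and 0.933 TPM (log2 change -0.84, adjusted p 0.00892). It passed the filter only through its 2D libraries. Its partner Tap2 was at 0.716 and 0.789 TPM in 3D and lower in 2D, and the chloride channel gene Cftr did not pass 0.384 TPM.

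**Figure D5:**
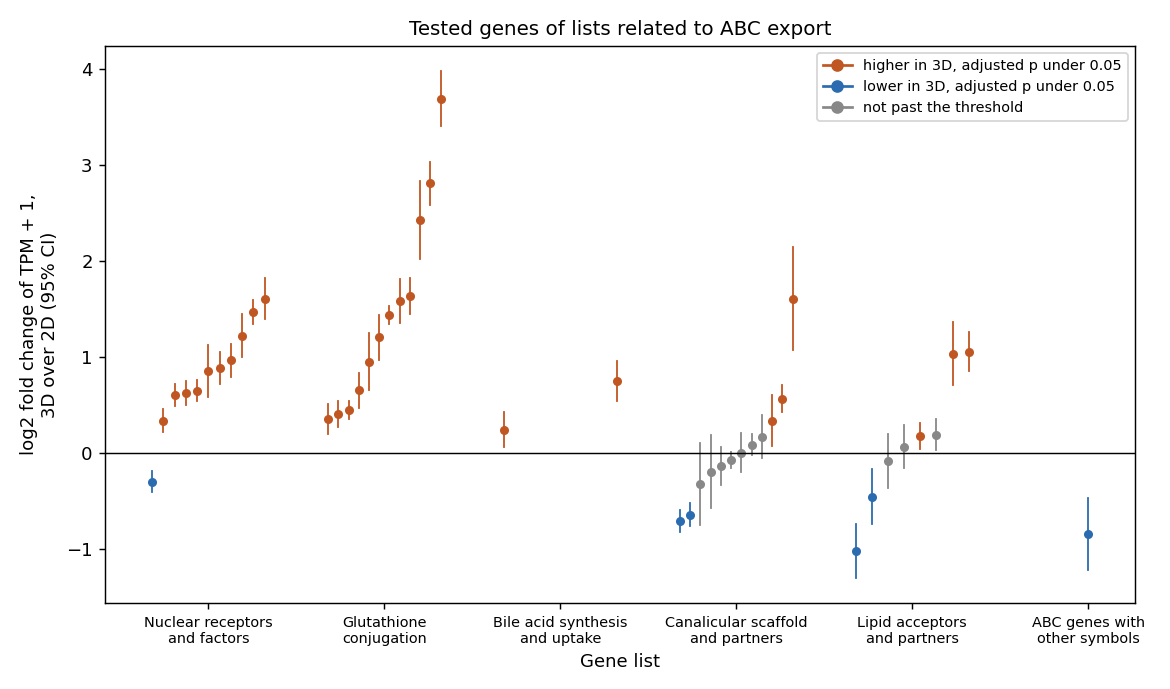
Log2 fold change of TPM + 1, 3D over 2D, with its 95% confidence interval for the tested genes of 6 lists related to ABC export, 1 point per gene in rising order. All 12 glutathione genes and 10 of 11 nuclear receptors and factors lie above 0 past the threshold, and the canalicular scaffold list lies on both sides of 0. Of all genes tested, 23.4% were called higher.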

How the data were processed

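RNA-seq libraries of AML12 cells were made by the authors with a stranded mRNA kit. Per the labels and methods, the authors' steps were trimming (cutadapt 1.8.3, Trimmomatic 0.36), stranded alignment to GRCm38 (HISAT2 2.0.5) and gene quantification against Ensembl release 93 (StringTie 1.3.4). The authors deposited 1 column of TPM for each library, and these sum to 1000000 in each library, so the depth is unknown and no interval that needs counts was computed. A listed 0 can be a failed estimate. The deposited table also holds columns of log2 fold changes and of p-values from the authors' DESeq2 comparison, which were not used.

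The test was limma 3.58.1 (R 4.3.3) on log2(TPM + 1) for genes whose mean over 4 libraries was at least 1 TPM, with trended, robust eBayes, two-sided, with culture as the only factor and Benjamini-Hochberg adjustment over all genes tested. All adjusted p-values come from this fit or its alternatives. An exact permutation test of 2 against 2 libraries cannot go below 0.333. The labels do not say that replicates were separate cultures, so p-values measure the spread between these libraries, which may be technical. The script was tested on simulated data. Few genes changed there, and by more than most called members did, so smaller changes were not covered. Figures were drawn with matplotlib 3.10.9.

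Tested members of the 3 exporter and lipid groups were named with all values, others with their fitted value, and with library values where the adjusted p-value was under 0.05 and the log2 fold change at least 0.5 in size, and of each further list the 3 genes with the highest mean TPM and the 3 with the largest change past the threshold. Markers are from the marker lists, and items outside this rule (library values of Abcb10, Abce1 and Abcf2, and Kcnj11, Kcnj8, Gm13614, Dlk2, Gm29253) were picked with their values in view. The members and lists were chosen with earlier results of these data known. Positions are those of the table, and 46 of 48 members have the same position in GENCODE release M21. Shared 100-base words were counted in the GENCODE transcripts.

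Alternatives tried were pseudocounts of 0.1 or 5, all genes kept, a mean of at least 5 TPM, quantile normalization, median centring, rescaling of TPM with the 20 highest genes and the mitochondrial genes removed, a replicate block, a constant prior variance, an adjusted p-value under 0.01, paralogs summed, and each library left out. Genome structure libraries were not analysed here, and a few genes counted in the lists are not reported here by name.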

Additional observations from a re-analysis of the deposited data

How the results depend on the processing

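All 20 called members kept their direction in the 279 values computed for them under 14 alternatives. Alternatives that change only the filter, the block, the prior variance or the threshold leave each log2 change as it was. Direction could not change in those. Of the 20 called members, 13 stayed past the threshold in every alternative in which they were tested (Abcb1a, Abcb1b, Abcb11, Abcg2, Abcc2, Abcc3, Abcc4, Abcc8, Abcc10, Abca2, Abca3, Abca8b and Abcd3). Of 762 values for the 55 named genes in all, 694 kept direction and side of the threshold, 50 fell below it, 9 newly passed it and 9 changed sign, none of the last for a called gene. The log2 change of Abcf2 turned positive with centring (0.01004), quantile normalization (0.0318) and rescaling (0.0230). With 1 library left out, values ranged from -0.0341 to 0.0277 for Abcf2, from -0.0844 to 0.16 for Abca4, from -0.0469 to 0.10 for Abcb8 and from -0.0331 to 0.16 for Soat2.

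The count of higher members ranged from 9 to 13. That of lower members was 5 with no filter and 4 at an adjusted p-value under 0.01, against 8. With the replicate block, 12 were higher and 6 lower, the block losing the calls on Abcf3, Abcd4, Npc2 and Slco2b1. Over genes, the deviations of the same-numbered libraries had a correlation of -0.0549. The labels do not say whether the numbers pair the libraries. The value cannot settle it, since libraries made in parallel can also give one near 0. A constant prior variance gave 1 lower sinusoidal gene, Abcc6, against 0. The members' median was 0.21 at a mean of at least 5 TPM. Leaving out 1 library gave 9 to 12 higher members, 4 to 5 lower members, medians of -0.0341 to 0.0277, 3 to 5 higher lipid transporters and 2 to 3 higher sinusoidal exporters. These fits assume that the lone library of a culture varies like the others. The cause of these shifts was not tested. TPM keep no depth, so how far depth limits the members under 1 TPM is unknown.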
